A study of Rattus norvegicus with 2 samples.

Results

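The measurements described here are those of the 4634 loci on chromosome 12, out of 231247 loci placed on a rat autosome or the X chromosome. A locus was taken where an array probe, not a control, was measured on both arrays without an outlier flag in either channel and was placed on chromosome 12 of the rat assembly rn4 by the array files. Repeated spots of a probe were averaged, and 56 probes on randomly placed sequence of chromosome 12 were left out. Chromosome 12 thus holds 2.00% of the placed loci. The material was kidney DNA of 2 male Wistar rats (spelled Wister in the labels), untreated and 5 weeks old, with 1 array per rat. Both rats form a single group of normal kidney, so there was neither a treated group nor a control group. On each array DNA precipitated with an antibody against 8-oxoguanine (8-oxoG) was labelled with Cy5 and input DNA without precipitation with Cy3, and the dyes were not swapped, so that a difference between dyes cannot be told apart from one between IP and input. The 8-oxoG level of a locus is log2(IP/input) minus the median of the array, and a level of 0 is therefore the array median and not the absence of 8-oxoG.

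8-oxoG is a guanine oxidised by reactive oxygen species, which are formed in large part by mitochondria and are abundant in the kidney tubule. It can pair with adenine during replication and so lead to a G-to-T change. Cells remove it from DNA through base excision repair started by OGG1, and clear the oxidised nucleotide from the precursor pool through MTH1.

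Chromosome 12 was the shortest of the 21 chromosomes by its loci, which span 46.7 Mb from base 59921 to base 46780046. Its loci lay close together, with a median distance of 6370 bases between starts against 8029 bases elsewhere. Of them, 3652 (78.8%) had signal well above background for IP and input alike in the 2 rats, against 78.1% of the other placed loci, and no spot was saturated. The chromosome was rich in gene names for its number of loci. In the RefSeq table of assembly GRCr8 it carries 672 protein-coding names, or 2.91% of those on the 21 chromosomes, which is 1.45 times its share of loci. Only chromosomes 19 and 10, at 1.52 and 1.51, had a higher ratio. Over the 21 chromosomes this ratio and the mean 8-oxoG level had a correlation of -0.85 on replicate 1 and -0.55 on replicate 2, and for the mean of both arrays it was -0.78, or -0.74 over the 20 chromosomes other than chromosome 12. These are descriptions across chromosomes of the same arrays, with names and loci counted on different assemblies.

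The chromosome holds the gene of MTH1 and genes of other DNA repair pathways. Genes were listed because they were thought to lie on this chromosome, so their number says nothing about a concentration of any kind of gene. Named on it in that table are Nudt1, which encodes MTH1, Ung, the uracil glycosylase of base excision repair, Pms2 of mismatch repair and Brca2 of homologous recombination. Also named on it are Kl (klotho, a regulator of phosphate handling made in the distal tubule) and Epo (erythropoietin), and the neuronal gene Auts2. Positions of these genes on rn4 were not used here, so no level is given for single genes.

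The mean level of chromosome 12 was -0.23 on replicate 1 and -0.17 on replicate 2, or -0.20 ± 0.04 (SD, n = 2). Both rats therefore had less IP signal relative to input on chromosome 12 than at the median locus of the array. The mean of the other placed loci was also below 0, at -0.01 on replicate 1 and -0.09 on replicate 2. Part of the low level on replicate 2 was thus shared with the other chromosomes. Set against all other placed loci, chromosome 12 was lower by a difference of -0.22 on replicate 1 and -0.08 on replicate 2, with a mean of -0.15 ± 0.10 (SD, n = 2). In limma's test over the 21 chromosomes this passed (adjusted p = 2.34e-04), and chromosome 12 was 1 of 3 chromosomes called below the rest (14.3% of 21), with chromosomes 10 and 19. A further 2 (9.52%), chromosomes 2 and 11, were called above the rest.

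**Figure D1:**
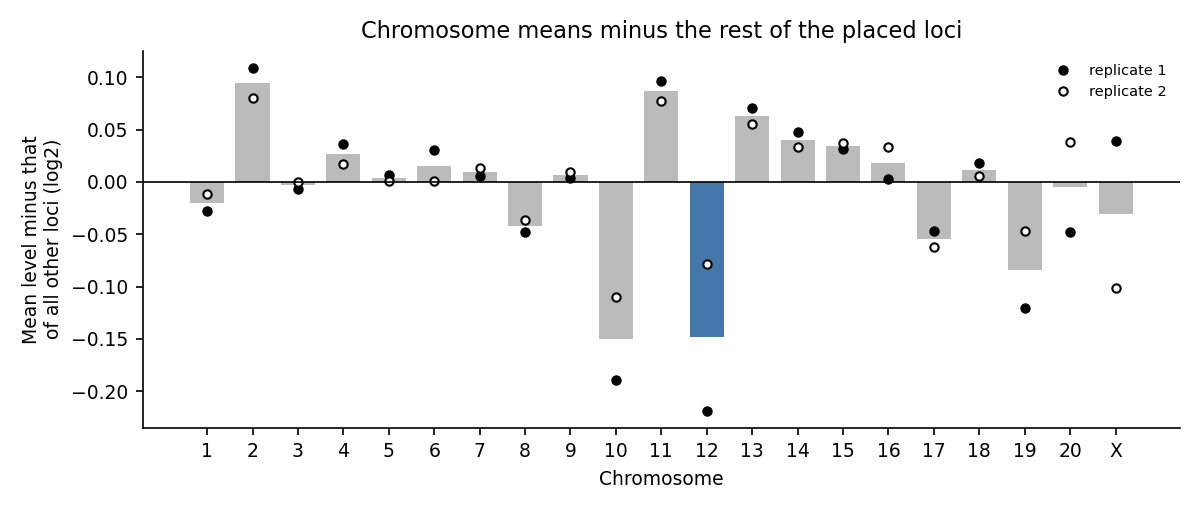
Mean 8-oxoG level of each chromosome minus that of all other placed loci (log2), with bars for the mean of both rats and a point for each rat. Chromosome 12 is at -0.22 on replicate 1 and -0.08 on replicate 2, beside chromosome 10 at -0.19 and -0.11.

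That call rests on an error shared by all chromosomes. The rats differed more on chromosome 12 than on any other chromosome relative to the rest, with an SD of 0.10, whereas limma pooled the spread over the 21 chromosomes to a standard error of 0.027. The mean was below 0 under each of 9 alternative ways of processing, and both arrays were below 0 in 8 of them, but the call was lost in 5. The authors' table is left out of this count, since it holds the same ratios. With autosomes only the difference was -0.15 with an adjusted p of 0.2, without the first and last 3 Mb of each chromosome it was -0.16 (adjusted p = 0.098), with medians over loci -0.13 (adjusted p = 0.119), and with loci well above background only -0.14 (adjusted p = 0.187). In these 4 settings limma no longer pooled the spread completely and the standard error rose, to 0.05 with autosomes only. With normexp the difference was -0.05 on replicate 1 and 0.005 on replicate 2 (mean -0.02, adjusted p = 0.509). This setting narrowed the levels of all placed loci, from an SD of 0.96 to 0.38 on replicate 1 and from 1.25 to 0.21 on replicate 2, so the sizes are not on the same scale. An exact sign-flip test of chromosome 12 alone cannot go below p = 0.5 with 2 arrays, and here it gave 0.5 (two-sided).

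**Figure D2:**
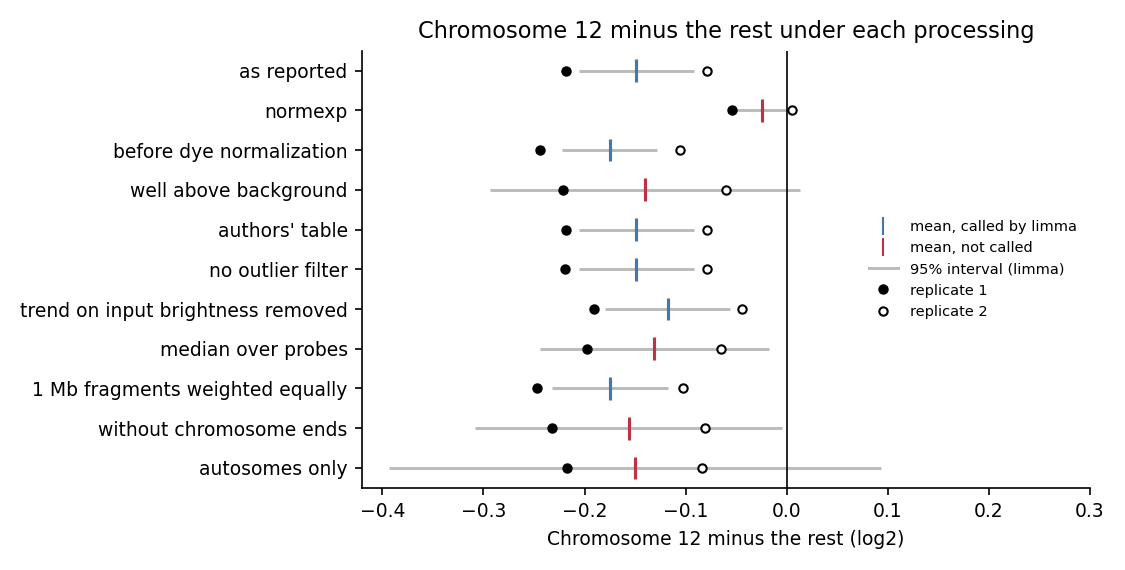
Chromosome 12 minus all other placed loci (log2) as reported, from the authors' table, which holds the same ratios, and under 9 other ways of processing, with a point for each rat, a tick for the mean and a line for limma's 95% interval. The mean lies between -0.12 with the trend removed and -0.175 before dye normalization in all settings but normexp, at -0.02, while the interval is widest with autosomes only, from -0.39 to 0.09.

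Compared with single chromosomes, chromosome 12 was below 18 of the other 20 on both arrays, the exceptions being chromosomes 10 and X on replicate 2. After adjustment over the 20 differences, 2 of them (10%) passed, both below 0: chromosome 12 was lower than chromosome 2 by a difference of -0.31 on replicate 1 and -0.15 on replicate 2 (adjusted p = 0.0447), and lower than chromosome 11 by -0.31 and -0.15 (adjusted p = 0.0447). No chromosome passed under normexp, with loci well above background only or with the trend on input brightness removed, while 15 passed before dye normalization. From chromosome 10, the other chromosome with a mean of -0.20, it differed by -0.03 on replicate 1 and 0.03 on replicate 2, with an interval of the mean difference from -0.15 to 0.15. Chromosome 12 was also not separated from chromosome 19, with a mean difference of -0.06 (interval from -0.21 to 0.09), or from chromosome 20, of similar length, at -0.14 (interval from -0.29 to 0.0089).

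The low mean went with a smaller number of loci with high levels. Levels above 1, a doubling of IP over input relative to the array median, were found for 6.41% of the loci of chromosome 12 on replicate 1 and 12.4% on replicate 2, against 13.7% and 16.4% of the other loci. This was the lowest share of the 21 chromosomes on both arrays. Levels below -1 were found for 15.9% and 19.2%, against 13.4% and 19% elsewhere, so the excess on the low side was seen on replicate 1 and was slight on replicate 2. Shares were compared after the values had been seen, and in limma over the 21 chromosomes neither passed. The share above 1 differed from the rest by -7.30 percentage points on replicate 1 and -4.03 on replicate 2 (mean -5.67, adjusted p = 0.0506), and the share below -1 by 2.41 and 0.162 (mean 1.29, adjusted p = 0.338). Both calls depended on the processing. With loci well above background only, the share above 1 passed (mean difference -5.87, adjusted p = 1.49e-06). With autosomes only, the share below -1 passed (mean difference 1.41, adjusted p = 0.026). Both mean differences moved little, from -5.67 to -5.87 and from 1.29 to 1.41. With 2 arrays these adjusted p-values rest largely on the spread that limma pools over the chromosomes, and are not a sign of a larger difference. With normexp only 0.394% of all placed loci on replicate 1 and 0.119% on replicate 2 were above 1, and 3.66% and 0.567% below -1, so its differences of 0.013 and -0.0071 say little.

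**Figure D3:**
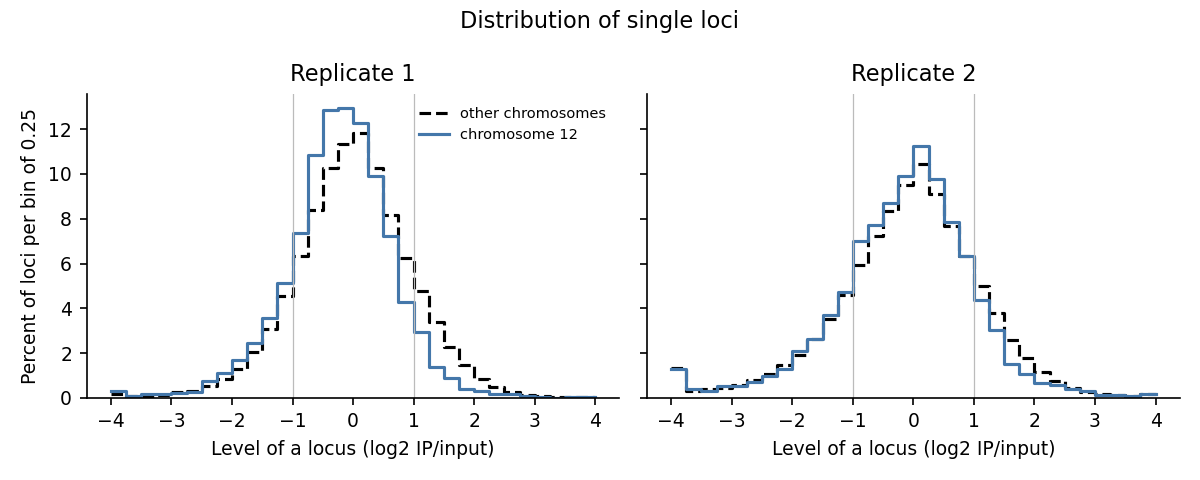
Percent of loci per bin of 0.25 in 8-oxoG level (log2 IP/input), for chromosome 12 (solid) and all other chromosomes (dashed) on each replicate, with the outermost bins holding all values beyond them. The right flank of chromosome 12 lies below that of the other chromosomes, with 6.41% against 13.7% of loci above 1 on replicate 1 and 12.4% against 16.4% on replicate 2.

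The upper quartile of the loci on chromosome 12 was 0.32 on replicate 1 and 0.55 on replicate 2, against 0.59 and 0.67 elsewhere. The lower quartile was -0.71 and -0.79, against -0.59 and -0.75. The distribution was thus narrower on chromosome 12, with an interquartile range of 1.03 and 1.33 against 1.18 and 1.42. Levels above 0 were found for 40.1% of its loci on replicate 1 and 47.5% on replicate 2.

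The level is a ratio, and its denominator was high on chromosome 12 when both channels were looked at, a comparison chosen after the levels had been seen. The median input intensity was 113 on replicate 1 and 89.9 on replicate 2, against 88.7 and 69.7 on the other chromosomes. For IP the medians were 88.8 and 79.3, against 90.4 and 70.1. On the log2 scale the input of chromosome 12 exceeded that of the rest by 0.21 on replicate 1 and 0.22 on replicate 2 (mean 0.21, adjusted p = 2.17e-16 in limma), behind chromosomes 10 and 17 at 0.26 and 0.23, and 12 of the 21 chromosomes (57.1%) were called above the rest in input. Its IP differed from the rest by -0.0084 on replicate 1 and 0.14 on replicate 2, which did not pass (adjusted p = 0.35), while 9 chromosomes (42.9%) were called above the rest in IP. The rest includes the X chromosome of male rats, which was at -1.02 in input and -1.05 in IP and so raises the difference of every autosome. Its effect on these counts was not tested. With autosomes only, chromosome 12 exceeded the rest by 0.16 in input (adjusted p = 4.62e-15) and by 0.01 in IP (adjusted p = 0.712). The input was bright to the same extent in both rats, and the rats differed in the IP. Whether the brightness of the input has a part in the low level was not tested beyond removal of the trend, which left -0.12 (adjusted p = 0.005).

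**Figure D4:**
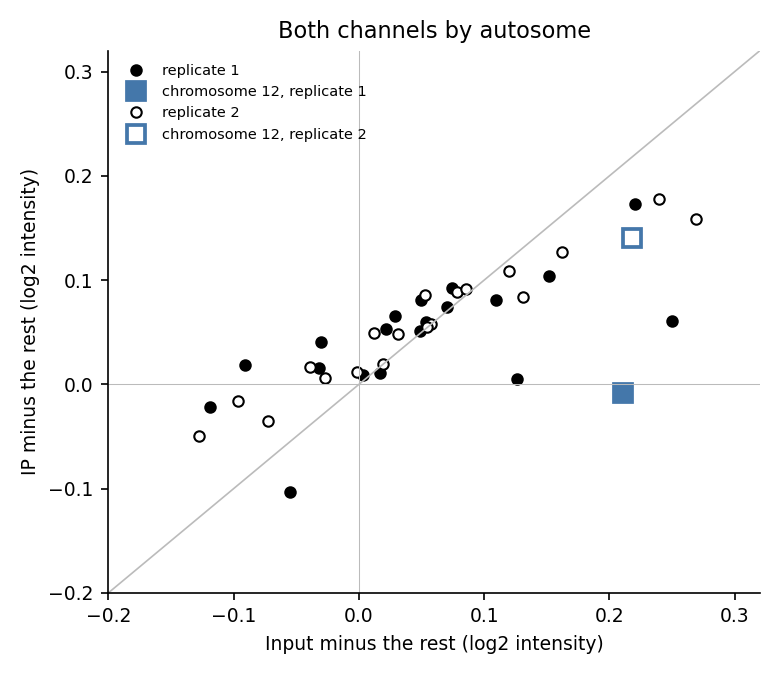
Mean log2 intensity of each autosome minus that of all other placed loci, input on the horizontal and IP on the vertical axis, with a point for each rat and squares for chromosome 12. Chromosome 12 is at 0.21 and 0.22 for input and at -0.0084 and 0.14 for IP, below the diagonal of equal shifts on both replicates.

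When the loci of each array were divided into 5 equal classes of input brightness, chromosome 12 had more loci in the brightest class, with 23.9% of its loci on replicate 1 and 23.8% on replicate 2. The gap to the other chromosomes was widest in the second dimmest class, where the mean level of chromosome 12 was lower by a difference of -0.36 on replicate 1 and -0.24 on replicate 2. In the brightest class it was -0.01 on replicate 1, and on replicate 2 chromosome 12 was higher than the rest, by 0.16. Chromosome 12 was thus below the rest in the 3 dimmer classes in both rats, and in all 5 on replicate 1 only. No test was made between the classes.

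Along the chromosome the depletion was broad. Division into 1 Mb fragments gave 47 fragments with a median of 104 loci. Both rats were below 0 in 40 of them (85.1%, beside 48.9% of all fragments of the genome) and above 0 in 2 (4.26%, beside 32.8%), and in 5 the rats had opposite signs (10.6%, beside 18.3%). When limma was run on the 2731 fragments of the genome, 13 fragments of chromosome 12 were called below 0, which is 27.7% of its fragments beside 20.4% of all, and 2 were called above 0, or 4.26% beside 20.9% of all. Of the 47 fragments, 17 were in the lowest quartile of the genome and 2 in the highest. The scarcity of rich fragments was thus the larger departure from the background, although no test of the 2 counts was made. On chromosome 10, the counts were 42 below and 5 above 0 of 111 fragments, and on chromosome 20 they were 13 and 9 of 56. The number of depleted fragments on chromosome 12 moved to 2 with normexp, to 6 with medians over loci and to 20 with the grid shifted by 500 kb. Shares of all fragments in these settings were not set beside these counts.

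**Figure D5:**
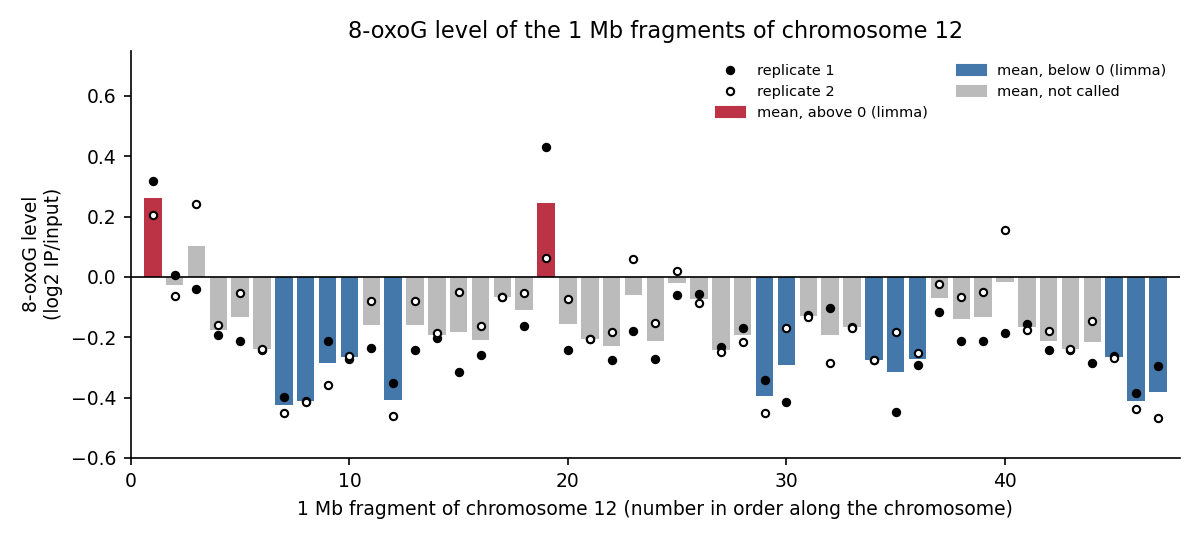
8-oxoG level (log2 IP/input) of the 47 fragments of 1 Mb, numbered in order along chromosome 12, with bars for the mean of both rats and a point for each rat. The 13 blue bars were called below 0 and the 2 red bars above 0, while the grey bars were not called.

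The 5 lowest fragments with at least 50 loci had levels near -0.4 in both rats. The lowest, from 6 to 7 Mb, was at -0.40 on replicate 1 and -0.45 on replicate 2 over 76 loci (adjusted p = 6.08e-04). Its neighbour from 7 to 8 Mb was at -0.41 and -0.42 over 108 loci. The fragment from 6 to 7 Mb ranked 36 from the lowest of all 2731 fragments. The fragment from 45 to 46 Mb, near the distal end, was at -0.39 on replicate 1 and -0.44 on replicate 2, that from 11 to 12 Mb at -0.35 and -0.46, and that from 28 to 29 Mb at -0.34 and -0.45. These 5 fragments were the most depleted of chromosome 12 and all passed, with adjusted p-values up to 0.0013. With normexp they stayed below 0, from -0.08 to -0.16, but only those from 6 to 7 Mb and from 11 to 12 Mb passed.

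At the other end of the scale there was little above 0. Among fragments with at least 50 loci and the same sign in both rats, 1 was above 0. This was the first of the chromosome, from 0 to 1 Mb, at 0.32 on replicate 1 and 0.20 on replicate 2 over 68 loci (0.26 ± 0.08, SD, n = 2, adjusted p = 0.0347). With normexp its level was -0.02, and before dye normalization it was 0.31. The normexp setting starts from median signals and differs in background, offset and normalization at the same time, and which of these turned the sign was not tested. The next 4 in rank were all below 0: from 16 to 17 Mb (-0.07 on both replicates), from 36 to 37 Mb (-0.12 and -0.02), from 17 to 18 Mb (-0.16 and -0.05) and from 30 to 31 Mb (-0.13 on both). None of these 4 passed. The rich end of chromosome 12 was thus mostly a set of fragments near the array median.

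The second fragment called above 0, from 18 to 19 Mb, holds only 16 loci and falls outside the rule for named fragments, so it was singled out after its values were seen. It was at 0.43 on replicate 1 and 0.06 on replicate 2 (adjusted p = 0.0469), and the rats differed there more than in any other fragment of the chromosome (SD 0.26). This call, as those of the other 1 Mb fragments, rests on 1 standard error shared by all of them, 0.10, and not on the spread of the fragment alone. All its loci were well above background. Its mean log2 input was 8.03 and 7.71, which ranked 12 and 11 of the 2731 fragments from the brightest, and its IP was brighter still, at 8.48 and 7.83. The fragment also lies among the widest gaps between loci of the chromosome, of 447 and 407 kb. The part of sparse coverage and bright signal in this level was not tested.

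In 5 fragments the rats fell on opposite sides of 0. The widest disagreement was from 39 to 40 Mb, at -0.19 on replicate 1 and 0.16 on replicate 2, followed by the fragment from 2 to 3 Mb, at -0.04 and 0.24, and that from 22 to 23 Mb, at -0.18 and 0.06. In these 3 fragments replicate 2 was the higher. The fragments from 1 to 2 Mb (0.0073 and -0.06) and from 24 to 25 Mb (-0.06 and 0.02) were close to 0 in both rats. None of the 5 passed the test.

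Over longer segments, added after the values had been seen, every segment of chromosome 12 averaged below 0 in both rats. The 5 segments of 10 Mb had levels of -0.17, -0.22, -0.25, -0.23 and -0.27 on replicate 1 and of -0.15, -0.13, -0.18, -0.13 and -0.27 on replicate 2, in order along the chromosome. All 5 were called below 0 in limma over the 282 segments of the genome, of which 95 (33.7%) were called so. Chromosome 12 was the only chromosome with every segment called below 0, but it also had the fewest segments. Chromosome 10 had 11 of 12 called and chromosome 19 had 4 of 6. With the trend on input brightness removed 4 of the 5 passed, and with normexp none. Shares of all segments in these settings were not set beside these counts. The last segment, which ends at 46.8 Mb, was the lowest of chromosome 12, and the rats were closest there.

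The ends of the chromosome differed in level. The first 3 Mb, with 296 loci, were at 0.06 on replicate 1 and 0.11 on replicate 2. The last 3 Mb, with 388 loci, were at -0.30 and -0.37, the lowest mean of the last 3 Mb of any of the 21 chromosomes. The 3950 loci between were at -0.24 and -0.17, with the lowest mean of both rats among the chromosomes, although on replicate 2 chromosomes 10 and X were lower. On replicate 1 the level of the first 3 Mb came from the fragment from 0 to 1 Mb, and on replicate 2 from that and the fragment from 2 to 3 Mb, although in both fragments after the first the rats had opposite signs. Both rats thus had a higher mean at the start of chromosome 12 than at its distal end, and this contrast was not tested.

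After smoothing over 500 kb in both directions, stretches of consecutive loci above 0 covered 7.83% of the length of chromosome 12 and stretches below 0 covered 89.2%. That was the largest depleted share of the 21 chromosomes, beside 88.1% on chromosome 10 and 63.3% on chromosome 20. On replicate 1 alone the rich share was 6.7% and on replicate 2 alone 14.0%, and for both rats it went to 13.0% with a window of 250 kb, 4.55% with one of 1 Mb and 0.832% with normexp. Only 1 rich stretch of chromosome 12 reached 1 Mb, against 5 on chromosome 10 and 7 on chromosome 20. These chromosomes span 46.7, 110.7 and 55.3 Mb, and the counts are not set against length. On replicate 2 alone chromosome 12 had 2 such stretches. The stretch for both rats ran from base 59921 to 1177428 with 82 loci, at 0.34 on replicate 1 and 0.24 on replicate 2. The other rich stretches named for their length were from 18231219 to 18878691 (0.647 Mb, 10 loci), at 0.45 and 0.25, and from 2143299 to 2738310 (0.595 Mb, 78 loci), whose own loci averaged -0.12 and 0.08. The smoothed values of the last of these, all above 0, also draw on loci outside it.

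The longest depleted stretch ran over 11.6 Mb, from 5047170 to 16693876, with 1153 loci at -0.28 on replicate 1 and -0.23 on replicate 2. It contained 3 of the 5 lowest fragments named above. The next was the distal stretch from 39449156 to 46780046 (7.33 Mb, 942 loci), at -0.28 and -0.26, and then that from 30681673 to 36707888 (6.03 Mb, 644 loci), at -0.26 and -0.21. In each of these stretches the rats differed by less than the distance of either from 0. The stretches were chosen by the smoothed mean of the same 2 rats, so this is no separate evidence of agreement. The smoothed mean of both rats had its minimum 28.9 Mb along the chromosome (replicate 1, -0.43; replicate 2, -0.58) and its maximum 0.794 Mb along it (0.43 and 0.31).

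Steps at the borders between fragments were ranked by size, and no cut for a sharp change was set. Among 85 borders between neighbouring 500 kb fragments with at least 20 loci each, the largest step was a fall at 39.5 Mb, where the level went from 0.21 to -0.38 on replicate 1 and from 0.78 to -0.14 on replicate 2. The second was the rise into the same fragment at 39 Mb, by 0.27 on replicate 1 and 1.05 on replicate 2. A 500 kb fragment with 25 loci thus stood between neighbours below 0 in both rats. It was the part of the fragment from 39 to 40 Mb that lay above 0 in both rats. Its left neighbour was at -0.05 on replicate 1, near the array median, and fragments of 500 kb were not tested. The third step was a rise at 4.5 Mb, from -0.33 to 0.05 on replicate 1 and from -0.27 to 0.43 on replicate 2. All 3 steps had the same direction in both rats and were larger on replicate 2. They were ranked by the mean of both rats, so a shared direction follows in part from the choice, and the first 2 share a fragment.

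At a resolution of 200 kb the chromosome gave 232 fragments with a median of 18.5 loci. Of these, 8 (3.45%) were called below 0, beside 2.57% of all 13491 fragments, and 2 (0.862%) were called above 0, beside 5.58%. At an unadjusted p under 0.05 there were 50 below (21.6%, beside 13.5% of all) and 11 above (4.74%, beside 16.3% of all). Rich fragments were therefore few on chromosome 12 at this scale too, without a test of the counts, and fewer still on chromosome 10, where 0.727% were called above 0. Of the 8 depleted ones, 4 lay within depleted 1 Mb fragments, which share their loci. The share of all 200 kb fragments of the chromosome that lie there was not set beside this. The depleted fragment from 20.2 to 20.4 Mb holds only 2 loci. The 2 rich ones, named after their values were seen, were from 39.2 to 39.4 Mb, at 0.52 on replicate 1 and 0.81 on replicate 2 over 8 loci (adjusted p = 0.0389), and from 18.2 to 18.4 Mb, which holds 1 locus, at 1.07 and 0.42. The counts moved with most settings, in both directions. They rose to 8 above and 14 below with centring on the mean of placed loci, to 11 and 62 when a level beyond 0.25 in both rats replaced the test, and to 4 and 17 before dye normalization, and 5 were above with the trend removed. With medians over loci there were 0 above and 2 below, and with loci well above background only there were none on either side. Shares of all fragments were not set beside the counts of these settings, which therefore show no departure from the genome.

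Single loci reached levels far beyond those of the fragments that hold them. The highest locus, at 36835800 to 36835859, was at 2.66 on replicate 1 and 4.24 on replicate 2. Its IP intensity was 177 and 312, against an input of 27.7 and 15.8. The second highest lay close to it, at 36819268 to 36819321, with 1.69 and 4.4, from an IP intensity of 59.6 and 225 and an input of 18.3 and 10.2. Both of these loci had input far below the median of chromosome 12, and their 1 Mb fragment had a level of -0.07. The third, at 15611063 to 15611116, differed in that its input was 140 and 110 and its IP 688 and 914, for a level of 2.29 and 2.99. It lies in a fragment at -0.21.

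The lowest locus, at 13565586 to 13565645, was at -4.38 on replicate 1 and -2.51 on replicate 2, with an IP intensity of 30.5 and 97.3 against an input of 629 and 532. Next came the locus at 8800120 to 8800179, at -2.66 and -3.35, and the locus at 22544108 to 22544166, at -2.13 and -3.78. On replicate 1 these had an IP intensity of 24.8 and 38.5 against an input of 156 and 167, and so combined faint IP with an input above the median of the chromosome. At 4 of the 6 named loci the rats were more than 1 apart.

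Loci beside gaps in coverage were higher on average than the others. Chromosome 12 has 17 gaps of over 100 kb between loci. Single gaps went both ways, from a flank mean of -0.51 at the gap from base 44699788 to 0.47 at that from base 18231279. The latter lies in the fragment from 18 to 19 Mb, which was kept in the means of flanking loci. The 132 loci within 5 of a gap averaged 0.08 on replicate 1 and 0.0061 on replicate 2, whereas the others averaged -0.24 and -0.18. In the same direction, the 5 fragments of 1 Mb with under 50 loci averaged 0.0014 and -0.10, against -0.23 and -0.17 for the others. Across the 47 fragments the level and the number of loci had a correlation of -0.50 on replicate 1 and -0.22 on replicate 2. The level and the mean log2 input had a correlation of 0.40 on replicate 1 and -0.07 on replicate 2. Both the positive value on replicate 1 and much of the level of the sparse fragments there came from the fragment from 18 to 19 Mb. Without it, a choice made after its values were seen, the correlation with input was -0.0084 and -0.276 (n = 46) and the other 4 sparse fragments averaged -0.11 and -0.13. These correlations describe neighbouring fragments of the same arrays, and no test was made.

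Levels were less correlated between the rats on chromosome 12 than on most chromosomes. Across its single loci Pearson's r between replicates was 0.256, the lowest of the 21 chromosomes, and 60.5% of the loci had the same sign. For fragments r was 0.451 at 200 kb (n = 232), 0.52 at 500 kb (n = 94), 0.639 at 1 Mb (n = 47) and 0.716 at 2 Mb (n = 24), and Spearman's rho at 1 Mb was 0.622. Over the 1 Mb fragments of the whole genome r was 0.795. The low r went with little variation along the chromosome, since the SD over its 1 Mb fragments, at 0.15, was the smallest of the 21 chromosomes beside 0.27 for all fragments. The SD of the difference between rats, at 0.14, was the smallest as well. At 200 kb both were smaller on chromosome 10, at 0.27 and 0.34, than on chromosome 12, at 0.28 and 0.35, while those of all fragments were 0.36 and 0.38. Chromosome 12 thus varied less than the genome at both scales, as did chromosome 10. Fragments of both also held more loci, with a median of 104 and 108 at 1 Mb beside 80 for all. At 200 kb the medians were 18.5 and 21 beside 13. Whether the number of loci averaged has a part in the smaller SDs was not tested.

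The shift between rats also ran against that of the genome. Averaged over fragments, replicate 1 was lower than replicate 2 by a difference of -0.04 on chromosome 12, and higher by 0.10 over all 2731 fragments. Replicate 1 was the lower in 28 of the 47 fragments, against 813 of 2731. On chromosomes 10, 19 and 20 it was the lower in 57 of 111, 26 of 60 and 25 of 56. For whole chromosomes the difference of replicate 1 minus replicate 2 was -0.06 on chromosome 12, the lowest of the 21 chromosomes. It was -0.0022 on chromosome 20 and 0.0064 on chromosome 10. Between fragments of chromosome 12 that lie apart, the level in one rat and that in the other had a correlation of 0.35 at 1 Mb (n = 92), 0.248 at 2 Mb (n = 90) and 0.0077 at 3 Mb (n = 88), and it was -0.18 at 5 Mb (n = 84) and -0.344 at 10 Mb (n = 74). Each pair of fragments was counted in both directions, so that n exceeds the number of separate pairs. Over the distances looked at, the correlation thus fell with distance.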

How the data were processed

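The authors deposited, for each spot, the processed intensity of both channels from Agilent Feature Extraction 10.5.1.1, with background subtracted, spatial trends removed and dyes matched by lowess. The authors also deposited a table of log2 values; a comparison with the processed signals of the scanner gave log2 of red (IP) over green (input), with a largest difference of 6.2e-15, and showed that it is not centred (column medians 0.0125 and 0.0625). Levels were centred on each array's median, without loess or quantile normalization. The number of arrays, 2, limits the precision. Tests used limma 3.58.1 in R 4.3.3 (intercept, eBayes, two-sided, Benjamini-Hochberg at 0.05) over all chromosomes, segments or fragments. Those of chromosomes and fragments were also run on simulated data, drawn with the same spread between arrays for every chromosome or fragment. Such data cannot show how calls fare where the spread differs, as it did on chromosome 12. Other steps used Python 3.11.15, numpy 2.4.6, pandas 2.3.3, scipy 1.17.1 and matplotlib 3.10.9. Named were 5 fragments of 1 Mb from each end of the ranking, if they had at least 50 loci and 1 sign in both rats, the 3 longest rich and depleted stretches, the 3 largest steps, and the 3 highest and 3 lowest loci well above background in both channels with 1 sign. Members and lists were chosen with earlier results of these data known. Alternatives covered background correction (normexp, offset 50, on median signals), dye normalization, filters, centring, brightness, grid, window and replicates. Comparisons of genic with other loci and of single genes were not run, since an rn4 annotation was not used here.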

Additional observations from a re-analysis of the deposited data

How the results depend on the processing

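Intensities per channel, shares beyond 1 and -1, and 10 Mb segments, with their alternatives, were chosen after seeing the data. Normexp, which narrowed all levels, moved most results. It gave a chromosome difference of -0.0247, 0 chromosomes that differed, 0 fragments of 1 Mb above and 2 below 0, 14 fragments of 200 kb below 0, 0 segments below 0, a rich share of 0.832%, r = 0.492 and share differences of 0.0134 and -0.0071, where few loci were beyond 1 or -1, and the fragment from 0 to 1 Mb reversed to -0.0227. The difference of chromosome 12 from the rest lost its call at -0.14 with loci well above background, -0.131 with medians, -0.156 without chromosome ends and -0.15 with autosomes only. Chromosomes that differed from chromosome 12 numbered 15 before dye normalization, 0 with loci well above background and 0 with the trend removed.

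Fragments of 1 Mb above 0 numbered 1 before dye normalization, with loci well above background, with medians, with the shifted grid and with at least 20 loci, and 0 with a level beyond 0.25 required on both arrays. Those below 0 numbered 6 with medians and 20 with the shifted grid. Fragments of 200 kb above and below 0 numbered 4 and 17 before dye normalization, 0 and 0 with loci well above background, 0 and 2 with medians, 8 and 14 with centring on the mean of placed loci, and 11 and 62 with the 0.25 rule. Above 0 there were 5 with the trend removed. None of these counts was set beside that of all fragments in the same setting. The share of loci above 1 passed with loci well above background, at -5.87, and that below -1 passed with autosomes only, at 1.41. A window of 250 kb gave a rich share of 13.0%, and one of 1 Mb 4.55%. Correlations were 0.451 at 200 kb, 0.52 at 500 kb, 0.716 at 2 Mb and 0.689 with the shifted grid.

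Without replicate 1 or replicate 2, the rich share ranged from 6.70% to 14.0%. The difference from the rest ranged from -0.22 to -0.08. For all these changes the cause was not tested. No paired analysis was possible because the arrays form 1 group. Genic loci, named genes and their variants were not run. Calls and correlations were not run without a replicate, since 1 array leaves no residual degrees of freedom. Signal over background limits dim loci.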
